A study of Mus musculus with 6 samples.

Results

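The genes of the interleukin-7 (IL-7) receptor, of the JAK-STAT5 pathway below it and of the SOCS inhibitors that restrain it were followed in CD4-CD8- double-negative (DN) cells of cultured fetal mouse thymus. The 10 genes were taken by symbol (Il7r, Il2rg, Jak1, Jak3, Stat5a, Stat5b, Socs1, Socs2, Socs3 and Cish), and 9 of them had at least 1 probe set annotated with that single symbol. These 9 genes had 17 of the 20380 single-gene probe sets and stood among 12393 genes. The expression of Il2rg is not analysed here. Where a gene had several, its brightest probe set on average over the 6 arrays stands for it, and the others are given where they differ.

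The cells came from C57BL/6 lobes taken on day 15 of gestation and kept for 6 days in organ culture, to an age of 21 days post conception. TCDD (2,3,7,8-tetrachlorodibenzo-p-dioxin) was added at 10 nM. It is a ligand of AHR, the aryl hydrocarbon receptor, a transcription factor that ligands switch on. The controls received dioxane, its solvent. The groups were emigrants (cells flushed off the lobes) with TCDD (2 arrays), emigrants with dioxane (2 arrays), thymocytes (cells from within the lobes) with TCDD (1 array) and thymocytes with dioxane (1 array, labelled 0.1% by volume). Medium with its additive was renewed every 2 days, and magnetic beads against CD4 and CD8 were the only selection, at a stated purity over 95%, so cells of any lineage without these proteins could be included. RNA of pooled DN cells was amplified before hybridisation, and nothing states that the emigrant arrays numbered 1 and 2 came from separate cultures. The p-values therefore cover array-to-array spread alone, and that may be technical. The arrays are called emigrants 1 and emigrants 2 by their label numbers, and an array pair is the TCDD and the dioxane array of thymocytes or of one number.

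IL-7 binds a receptor made of the IL-7 receptor alpha chain (Il7r) and the common gamma chain (Il2rg), which is shared with other cytokine receptors. The kinases JAK1 and JAK3, bound to these chains, phosphorylate STAT5A and STAT5B, which then enter the nucleus and raise survival and growth genes. CISH and the SOCS proteins are induced by STATs and feed back on receptors and kinases. In the thymus IL-7 signals keep DN thymocytes alive and are needed for gamma-delta T cells. Socs2 is also known as a gene that AHR ligands induce.

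STAT5 dimers bind a palindrome, TTCNNNGAA, and it was searched in the 300 bases around the transcription starts of the genes (250 before, 50 after, RefSeq, GRCm38.p6). Promoter windows were at hand for 9 of the 10 genes, Il2rg included and Socs2 not. These genes had 11 windows, 2 each for Stat5a and Stat5b. The palindrome stood in 3 of the 11 windows, of 3 genes, against 8.3% of all 32851 windows. Cish held it 2 times, which 0.457% of all windows do. The AHR core motif GCGTG, searched on both strands, stood in 3 of the 11 (Il2rg, Jak1 and 1 window of Stat5b), against 32.4% of all windows. The 3 windows with the palindrome are printed because Cish and Socs3 encode the feedback inhibitors and Il7r the receptor chain, and capitals mark the palindrome.
Cish (chr9:107296409-107296708, plus strand): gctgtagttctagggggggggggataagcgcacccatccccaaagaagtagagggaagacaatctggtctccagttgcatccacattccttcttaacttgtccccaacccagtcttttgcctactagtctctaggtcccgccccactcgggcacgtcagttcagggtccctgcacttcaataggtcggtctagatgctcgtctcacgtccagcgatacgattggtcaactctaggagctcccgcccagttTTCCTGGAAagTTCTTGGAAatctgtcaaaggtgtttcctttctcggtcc
Socs3 (chr11:117969317-117969616, minus strand): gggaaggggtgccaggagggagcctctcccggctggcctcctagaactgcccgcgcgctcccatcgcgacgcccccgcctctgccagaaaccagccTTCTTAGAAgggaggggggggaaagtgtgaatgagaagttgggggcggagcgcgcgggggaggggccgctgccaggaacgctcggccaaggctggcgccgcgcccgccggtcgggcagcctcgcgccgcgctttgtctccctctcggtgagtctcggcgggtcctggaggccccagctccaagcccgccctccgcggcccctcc
Il7r (chr15:9529827-9530126, minus strand): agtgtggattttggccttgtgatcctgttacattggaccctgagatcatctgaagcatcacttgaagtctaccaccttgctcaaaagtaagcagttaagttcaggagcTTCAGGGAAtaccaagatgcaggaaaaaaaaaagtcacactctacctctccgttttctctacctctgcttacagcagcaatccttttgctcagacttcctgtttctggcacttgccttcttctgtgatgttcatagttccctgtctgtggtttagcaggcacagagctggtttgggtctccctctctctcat
Counted from the transcription start used for each window, the Cish palindromes begin at positions 1 and 12, that of Socs3 at -154 and that of Il7r at -142. The RefSeq genes Socs3 and Il7r extend further upstream than these starts, to 117970336 and 9529941. The printed Socs3 window thus lies within the annotated gene. These are matches of letters only, and binding was not measured.

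The values are RMA summaries, background-corrected and normalised intensities on the log2 scale. Bacterial control transcripts show the signal without target, and the highest of them read 4.32 to 4.92, depending on the array. A level under that of its own array cannot be told from background. Emigrants 1 stood apart: the mean level of 10 DN2 and DN3 T-lineage markers was 5.56 with TCDD and 5.56 with dioxane there, against 6.15 and 8.30 in emigrants 2 and 7.46 and 8.60 in thymocytes. The mean of 11 neutrophil and mast cell markers was 9.21 and 8.18 in emigrants 1, against 6.58 and 6.11 in emigrants 2 and 5.32 and 5.44 in thymocytes. Actin probe sets at the 3' end exceeded those at the 5' end by 3.36 to 4.15 with TCDD and 3.01 to 3.48 with dioxane, more with TCDD in each pair. In amplified RNA this measure does not separate RNA integrity from the amplification. The same measure for Gapdh was 5.86 with TCDD and 6.10 with dioxane in thymocytes, and 4.69 to 5.60 on the 4 emigrant arrays, all lower than thymocytes. The part of RNA integrity or amplification in the results was not tested. In RNA of pooled cells, fewer cells of a type and less RNA per cell cannot be told apart.

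The question of the first comparison was how these genes differed between TCDD and dioxane. The inhibitors Socs2 and Socs3 were higher with TCDD in all 3 pairs, the kinases differed by less than 0.5 log2 units in every pair, and the receptor chain Il7r spanned more between array numbers than between treatments. Over all genes, 15.4% were higher with TCDD in all 3 pairs and 17.4% lower, and 2 and 1 of the 9 genes did so. None of the 9 passed the test, and neither did any other gene.

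Il7r, the receptor's specific chain, measured 9.96 with TCDD and 9.65 with dioxane in thymocytes. It measured 7.12 with TCDD and 8.44 with dioxane in emigrants 1, and 11.43 and 11.31 in emigrants 2. The TCDD and dioxane arrays overlapped across the 3 pairs, and the TCDD difference was 0.30 in thymocytes, -1.31 in emigrants 1 and 0.12 in emigrants 2. Il7r was the 1 gene of the 9 at least 2-fold lower with TCDD in any pair. The share of all genes at least 2-fold lower was 2.56% in emigrants 1, 2.79% in thymocytes and 2.16% in emigrants 2. The second, dimmer Il7r probe set gave 0.81, 0.19 and 0.30, so the probe sets disagreed in sign in emigrants 1. Across both cell sources the brighter one differed by -0.30 ± 1.29 (log2, SE; 95% interval -3.53 to 2.94; limma adjusted p = 0.999) and the dimmer one by 0.43.

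Jak1, the kinase bound to Il7r, measured 7.06 with TCDD and 6.83 with dioxane in thymocytes, 7.29 and 6.95 in emigrants 1, and 8.04 and 8.25 in emigrants 2. Its treatments overlapped, and its second probe set ran lower with TCDD in each pair (-0.33, -0.22 and -0.09). The third Jak1 probe set stayed under the highest control on every array, at 3.25 to 3.53. Jak3, the kinase of the common gamma chain, measured 5.72 with TCDD and 5.98 with dioxane in thymocytes, 5.47 and 5.35 in emigrants 1, and 5.74 and 5.65 in emigrants 2. The fitted differences were 0.12 ± 0.40 for Jak1 and -0.02 ± 0.19 for Jak3 (log2, SE), with 95% intervals of -0.87 to 1.11 and -0.48 to 0.44. Another pair of probe sets is annotated to both Jak3 and its neighbour Insl3 and was not used.

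Stat5a, one of the paired transcription factors, measured 5.04 with TCDD and 5.17 with dioxane in thymocytes, 4.30 and 4.73 in emigrants 1, and 4.50 and 4.89 in emigrants 2. It was lower with TCDD in every pair, by 0.13 to 0.42, and its level with TCDD in emigrants 1 lay under the highest control of that array (4.92). The fitted difference was -0.31 ± 0.16 (log2, SE; 95% interval -0.72 to 0.09; adjusted p = 0.999). The second Stat5a probe set lay under the controls on all arrays, at 3.41 to 3.67. Stat5b, the closely related second factor, measured 7.34 with TCDD and 7.38 with dioxane in thymocytes, 6.46 and 5.74 in emigrants 1, and 6.84 and 7.10 in emigrants 2. Its treatments overlapped, and the fit gave 0.14 ± 0.38 (95% interval -0.80 to 1.08). The Stat5a and Stat5b differences ran opposite ways in emigrants 1, at -0.42 and 0.72.

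**Figure D1:**
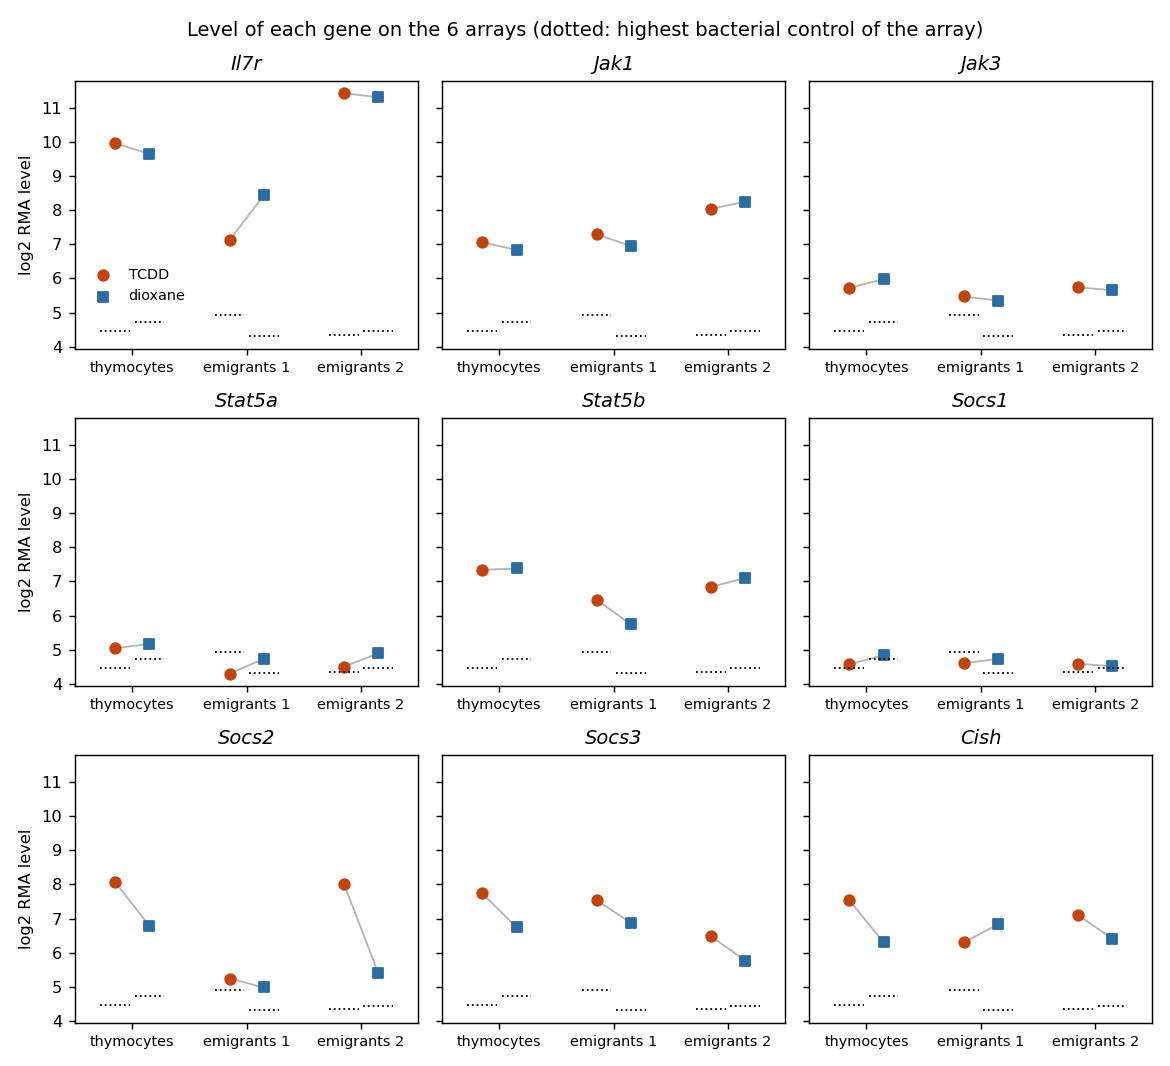
Log2 RMA level (vertical axis) of the 9 genes on each array, by array pair, with TCDD (circles) left of dioxane (squares) and grey lines joining a pair. Dotted marks are the highest bacterial control of each array. Il7r spans 7.12 to 11.43, Socs2 lies at 8.07 and 8.02 on the TCDD arrays of thymocytes and emigrants 2, and Socs1 and Stat5a lie close to the controls.

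Socs2, an inhibitor best known for limiting growth hormone and STAT5 signals, measured 8.07 with TCDD and 6.78 with dioxane in thymocytes, 5.24 and 4.98 in emigrants 1, and 8.02 and 5.40 in emigrants 2. The TCDD array was the higher one in each pair, but the TCDD array of emigrants 1 lay below all but 1 of the dioxane arrays, so the groups overlapped. The differences were 1.29, 0.27 and 2.62 log2 units, and the second Socs2 probe set gave 1.43, 0.39 and 1.95. Socs2 was the 1 gene of the 9 that was at least 2-fold higher in 2 pairs, as 1.57% of all genes were in 2 or more. The 3 TCDD arrays averaged 7.11 ± 1.62 and the 3 dioxane arrays 5.72 ± 0.94 (SD, n = 3 each). The fitted difference of 1.39 ± 0.71 (log2, SE; 95% interval -0.37 to 3.16) ranked 72 from the highest of 12393 genes and did not pass (limma adjusted p = 0.999). In emigrants alone it was 1.44 ± 0.95 (adjusted p = 1), and 0.05 without the TCDD array numbered 2. The difference between the cell sources in the TCDD effect was 0.15 ± 1.65 (adjusted p = 1), an interval of -4.19 to 4.49. Without both emigrant arrays numbered 1, the difference across both sources was 1.96 for Socs2. That omission, here and below, was added after the data were seen and leaves 1 residual degree of freedom. It drops the pair with the smallest Socs2 difference, so a larger value follows from the omission itself.

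Socs3, the inhibitor that blocks JAK kinases at receptors of the IL-6 family, measured 7.74 with TCDD and 6.74 with dioxane in thymocytes, 7.54 and 6.87 in emigrants 1, and 6.48 and 5.77 in emigrants 2. TCDD exceeded dioxane by 1.00, 0.67 and 0.71 in this brightest probe set, while the groups overlapped, with both arrays of emigrants 2 the lowest of their treatment. The other Socs3 probe sets were less even: one gave 0.52, 1.09 and 0.29 and the other 0.50, 0.73 and 0.00. The brightest and the first of these are of a type (name ending in _x_at) whose probes can also match other transcripts. The fitted difference was 0.79 ± 0.40 (log2, SE; 95% interval -0.22 to 1.81; adjusted p = 0.999). Across all genes, 1.29% were higher by 0.5 or more in all 3 pairs. Of the 9 genes only Socs3 was, by its brightest probe set and by neither of its others.

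Cish, a STAT5-induced inhibitor that binds activated cytokine receptors, measured 7.54 with TCDD and 6.30 with dioxane in thymocytes, 6.30 and 6.83 in emigrants 1, and 7.10 and 6.41 in emigrants 2. It was higher with TCDD in 2 pairs (1.24 and 0.68) and lower in emigrants 1 (-0.53). Cish and Socs2, both with higher TCDD values in thymocytes and emigrants 2, thus differed in sign in emigrants 1. The Cish fit gave 0.46 ± 0.35 (log2, SE; 95% interval -0.41 to 1.34) across both sources and 0.08 ± 0.37 in emigrants. Without both emigrant arrays numbered 1, the pair in which Cish was lower with TCDD, it was 0.96. The difference in its TCDD effect between emigrants and thymocytes was -1.16 ± 0.64 (adjusted p = 1). Socs1, the inhibitor that binds JAK kinases directly and acts downstream of IL-7 and interferons, measured 4.57 with TCDD and 4.84 with dioxane in thymocytes, 4.60 and 4.73 in emigrants 1, and 4.59 and 4.51 in emigrants 2. These levels lay within 0.33 of each other and close to the controls (under the highest one with TCDD in emigrants 1), and the fit gave -0.10 ± 0.16 for Socs1. Socs2, Socs3 and Cish were the 3 genes of the 9 that were at least 2-fold higher with TCDD in thymocytes (Socs3 by 1.00), as 2.83% of all genes were. In emigrants 2 Socs2 alone of the 9 was so (3.43% of all genes), and in emigrants 1 none was (3.66%).

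**Figure D2:**
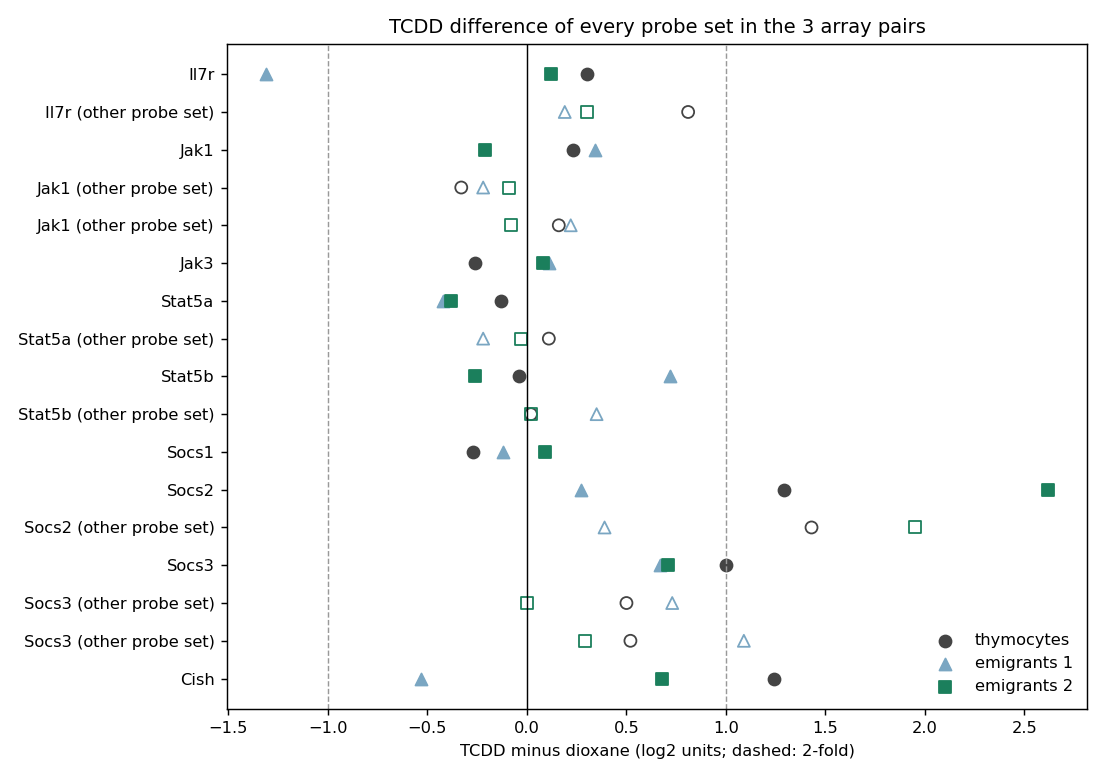
TCDD minus dioxane in log2 units (horizontal axis) for each of the 17 probe sets in thymocytes (circles), emigrants 1 (triangles) and emigrants 2 (squares). Filled symbols are the brightest probe set of a gene, open symbols the others, and dashed lines mark a 2-fold difference. Both Socs2 probe sets lie right of 0 in all pairs, and Il7r in emigrants 1 lies at -1.31.

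With limma, 0 of 12393 genes (0%) passed an adjusted p under 0.05 across both sources, with 659 genes (5.32%) at an unadjusted p under 0.05 and 0 of the 9 among them. In emigrants alone 0 genes (0%) passed, with 255 (2.06%) at an unadjusted p under 0.05 and again 0 of the 9. The test of the difference between the sources in the TCDD effect called 0 genes (0%), with 97 (0.783%) at an unadjusted p under 0.05. The median difference over the 9 genes was 0.12 across both sources, with 5 higher and 4 lower, beside -0.02 over all genes.

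Core AHR targets measured on the same arrays set the Socs2 values in context. Tiparp, an ADP-ribosyltransferase that dampens AHR, differed by 3.06, -0.01 and 3.50 log2 units in thymocytes, emigrants 1 and emigrants 2. Cyp1b1, a monooxygenase of aromatic compounds, differed by 3.62, 1.24 and 4.23. Socs2 (1.29, 0.27 and 2.62), Tiparp, Cyp1b1 and the AHR repressor Ahrr (3.79, -0.42 and 3.75) each had the lowest difference in emigrants 1. Ahrr exceeded the highest control on 3 arrays only, and its dioxane levels in thymocytes (4.05) and emigrants 2 (3.76) and its TCDD level in emigrants 1 (4.04) lay under it, so the Ahrr differences are bounded by background. The same holds for Cyp1a1, above the control on 2 arrays. For Scin, an actin-severing protein, the emigrants lay close together, at 3.93 in thymocytes, 1.85 and 2.02. The 8 core targets had medians of 3.34, 0.25 and 2.08 in the 3 pairs, beside medians of 0.01, -0.02 and -0.02 over all genes. The mean level of 12 macrophage and dendritic markers was 5.84 with TCDD and 5.61 with dioxane in thymocytes, 9.43 and 9.03 in emigrants 1, and 8.94 and 7.30 in emigrants 2. Their part in the Socs2 values was not tested.

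**Figure D3:**
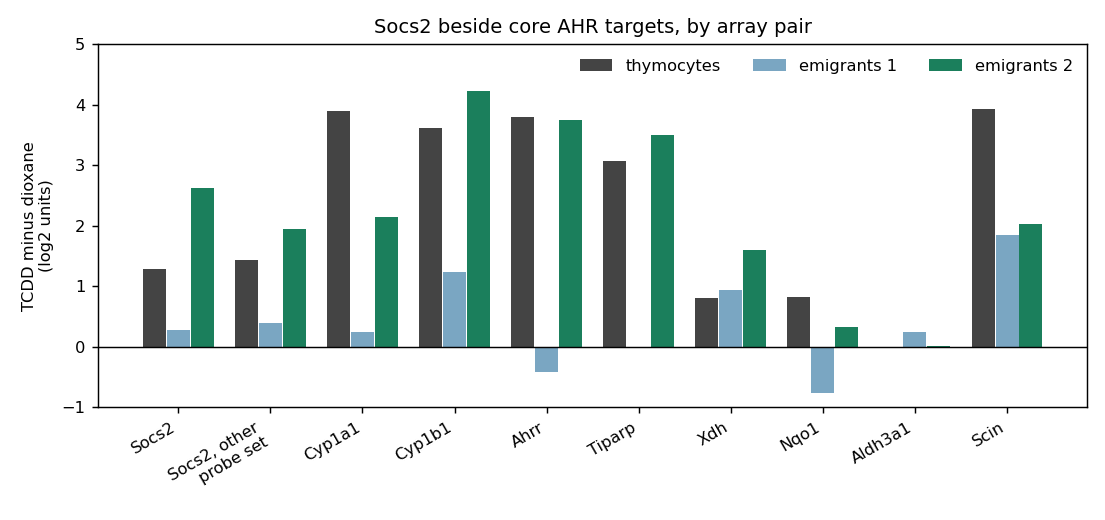
TCDD minus dioxane in log2 units (vertical axis, bars from 0) for both Socs2 probe sets and 8 core AHR targets, by array pair. The bar of emigrants 1 is the lowest of the 3 for Socs2, Cyp1a1, Cyp1b1, Ahrr, Tiparp, Nqo1 and Scin, and not for Xdh and Aldh3a1.

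Known targets of STAT5 or IL-7 were described next, most of them raised by these signals and one, Bcl6, repressed by STAT5 (-0.14 ± 0.42 with TCDD). Of 15 measured, 7 were higher with TCDD in all 3 pairs and 1 was lower (over all genes 15.4% and 17.4%), and none passed the test. The list was chosen with earlier results of these data known, so these counts are a description only. Id2, an inhibitor of E-protein transcription factors, measured 8.55 with TCDD and 5.87 with dioxane in thymocytes, 8.40 and 7.72 in emigrants 1, and 9.33 and 8.25 in emigrants 2. The Id2 arrays with TCDD all lay above those with dioxane, which held for 3.47% of all genes and for 0 of the 9. All TCDD arrays lay below all dioxane arrays for 4.61% of all genes, and again for 0 of the 9. Gadd45g, a stress and differentiation gene, measured 5.50 and 3.62, 4.13 and 3.32, and 5.42 and 4.03 in the same order. Its dioxane values and 4.13 lay under the highest controls, so those Gadd45g differences are bounded by background. NK and innate lymphoid cells also express Id2, and the mean of 10 markers of these cells was 7.78 with TCDD and 6.42 with dioxane in thymocytes, 6.40 and 6.46 in emigrants 1, and 8.11 and 7.90 in emigrants 2. Their part in the Id2 values was not tested. The fits gave 1.48 ± 0.47 for Id2 (log2, SE; adjusted p = 0.815) and 1.36 ± 0.42 for Gadd45g (adjusted p = 0.811).

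Pim1, a survival kinase and a classical STAT5 target, measured 9.17 with TCDD and 6.92 with dioxane in thymocytes, 8.11 and 8.44 in emigrants 1, and 7.76 and 7.22 in emigrants 2. Pim1 thus had the same signs as Cish in the 3 pairs. So had Mcl1, Pim2 and Xbp1 of this list, Il7r, and the AHR targets Ahrr, Tiparp and Nqo1. The share of all genes with these signs was not counted. Ccnd2, the D-type cyclin that STAT5 raises, was higher by 0.31, 0.41 and 0.68, and Ccnd3, the D-type cyclin of pre-T cells, was lower, at -0.47, -0.29 and -0.77. Ccnd3 fitted at -0.51 ± 0.17 (log2, SE; adjusted p = 0.888). The survival genes Bcl2 (0.05 ± 0.22), Bcl2l1 (0.26 ± 0.16) and Mcl1 (0.51 ± 0.22) had differences with adjusted p of 0.975 to 0.999. Slc2a1 stood at 1.48 ± 0.51, with its dioxane level in emigrants 1 (3.68) under the highest control. Across both sources 11 of the list were higher and 4 lower, namely Ccnd3, Bcl6, Myc (-0.45) and Pim2 (-0.17). The list's median was 0.44, beside -0.02 over all genes.

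Other parts of the pathway were described in the same way. Of 14 cytokines and receptor chains of the common gamma chain family, 7 were higher and 7 lower across both sources, with a median of 0.00. Il7 itself read 3.68 to 4.17, under the highest control on every array (stromal cells are its known source). Il2 and Il4, cytokines of activated T cells, differed by 0.53 ± 0.15 and 0.45 ± 0.16 (log2, SE; adjusted p = 0.811 and 0.903), from levels of 4.15 to 4.81 and 4.67 to 5.30 near the controls. The fitted difference was above 0 for all 6 other JAK and STAT genes measured, as for 5847 of all 12393 genes, and 0 passed. It was 0.76 ± 0.42 for Stat6, the factor of IL-4 signals, and 0.30 ± 0.24 for Jak2, but 0.02 ± 0.19 for Stat2 and 0.03 ± 0.69 for Stat4. Among 15 further inhibitors the median was 0.07, and Cbl, a ubiquitin ligase of activated receptors, stood at 0.61 ± 0.17 (adjusted p = 0.811). Of 11 known regulators of Il7r transcription, 5 were higher and 6 lower. Gfi1, a repressor of Il7r in T cells, measured 6.99 with TCDD and 8.17 with dioxane in thymocytes, 6.23 and 5.71 in emigrants 1, and 4.36 and 7.33 in emigrants 2. Gfi1 differed by -1.21 ± 0.62 (adjusted p = 0.999), and Foxo1, which raises Il7r, by 0.22 ± 0.37.

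The question of the second comparison was how these genes differed between emigrants and thymocytes. Of the 9 genes, 8 were lower in emigrants on average and Jak1 was higher, with a median of -0.30 beside -0.04 over all genes, of which 6937 of 12393 were lower. The 8 included Il7r at -0.23 ± 1.37 (log2, SE), which had no stable direction. Its second probe set gave 0.98, and leaving out single arrays gave -1.09 to 0.76. In the same fit the 12 macrophage and dendritic markers were all higher in emigrants, with a median of 3.05, and the 10 DN2 and DN3 markers had a median of -1.55. Their part in the results was not tested. Stat5a and Stat5b were lower on all 4 emigrant arrays than on both thymocyte arrays, as 10.8% of all genes were. None of the 9 was higher on all 4, as 5.46% of all genes were. None of the 9 passed: limma called 0 of 12393 genes (0%), with 880 (7.1%) at an unadjusted p under 0.05, 1 of the 9 among them.

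Stat5a averaged 4.60 ± 0.26 in emigrants (SD, n = 4) and 5.10 ± 0.09 in thymocytes (SD, n = 2), a fitted difference of -0.50 ± 0.17 (log2, SE; 95% interval -0.93 to -0.07; adjusted p = 0.628). The emigrant levels of Stat5a lay close to the controls, and 4.30 with TCDD in emigrants 1 lay under the highest one (4.92). The second Stat5a probe set gave -0.13 and lay under the controls on all arrays. Stat5b averaged 6.53 ± 0.59 in emigrants and 7.36 ± 0.03 in thymocytes, a difference of -0.83 ± 0.40 (adjusted p = 0.789). Its second probe set gave -0.38. Without both emigrant arrays numbered 1 the Stat5b difference was -0.40. Jak1 averaged 7.63 ± 0.62 in emigrants and 6.94 ± 0.16 in thymocytes, a difference of 0.69 ± 0.42 (adjusted p = 0.879). The second Jak1 probe set gave 0.29, the third -0.07, and the brightest gave 1.20 without both emigrant arrays numbered 1. Jak1 is highest on the emigrant arrays numbered 2 in the plot of levels, as Il7r is. Jak3 differed by -0.30 ± 0.20 (adjusted p = 0.904).

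Among the inhibitors, Socs2 averaged 5.91 ± 1.42 in emigrants (SD, n = 4) and 7.42 ± 0.91 in thymocytes (SD, n = 2), a difference of -1.51 ± 0.75 (log2, SE; adjusted p = 0.796). The dioxane arrays of emigrants lay 1.80 (numbered 1) and 1.37 (numbered 2) below the dioxane thymocytes in Socs2, whereas with TCDD the array of emigrants 2 lay only 0.04 below. The second Socs2 probe set gave smaller dioxane differences, of -0.63 and -0.29. With TCDD it gave -1.66 in emigrants 1 and 0.24 in emigrants 2, and its fitted difference was -0.58. Without both emigrant arrays numbered 1 the Socs2 difference by the brighter probe set was -0.71. Socs3 differed by -0.58 ± 0.43 and by -1.12 without those arrays. Emigrants 2 lay 1.26 (TCDD) and 0.97 (dioxane) below thymocytes in Socs3, and emigrants 1 differed by -0.21 and 0.13. The other Socs3 probe sets gave smaller fitted differences of -0.26 and -0.06, and the first of these put emigrants 2 with dioxane higher than thymocytes, by 0.14. Cish differed by -0.26 ± 0.37 and Socs1 by -0.09 ± 0.17.

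**Figure D4:**
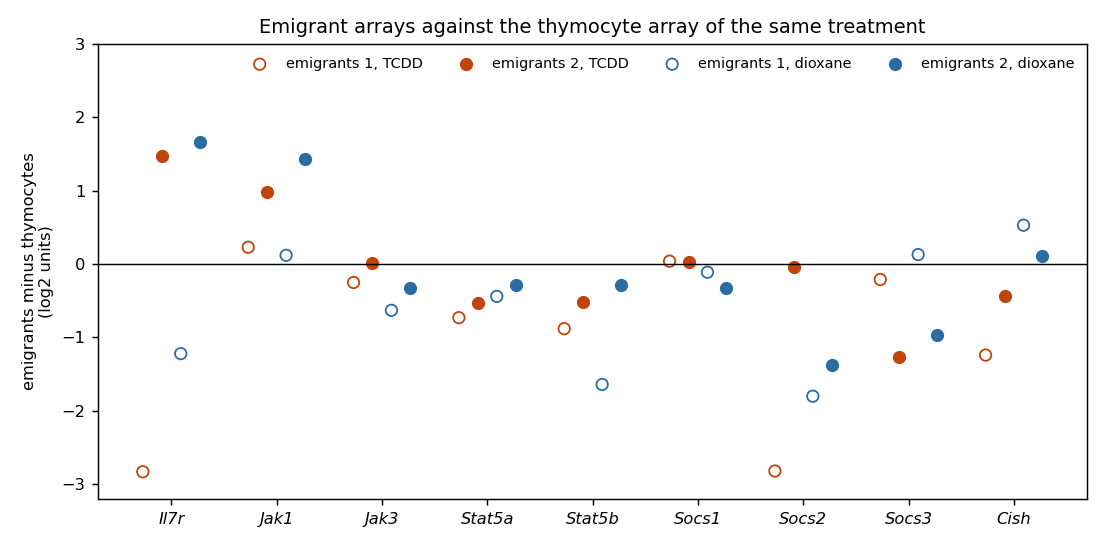
Level on each emigrant array minus that on the thymocyte array of the same treatment, in log2 units (vertical axis), for the 9 genes. Red is TCDD, blue dioxane, open symbols are emigrants 1 and filled symbols emigrants 2. Stat5a and Stat5b lie below 0 on all 4 arrays, and Il7r lies at -2.83 and -1.22 (numbered 1) but at 1.48 and 1.66 (numbered 2).

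Il7r had the widest spread of the 9 genes, with a range of 4.31 log2 units that exceeded the range of 99.2% of all genes (median 0.73). Socs2 followed with 3.09, a wider range than in 97.9% of genes, and Socs1 had 0.33, wider than in 10.8%. Between emigrants and thymocytes Il7r had a fitted difference of -0.23 ± 1.37 (log2, SE; adjusted p = 0.998), with emigrant arrays on both sides of thymocytes. Emigrants 1 were lower, by 2.83 with TCDD and 1.22 with dioxane, and emigrants 2 were higher, by 1.48 and 1.66. Without both emigrant arrays numbered 1 the difference was 1.57. That omission was added after the data were seen and drops the arrays where Il7r was lowest, so a higher value follows from it. Il7r was at least 2-fold lower on both emigrant arrays numbered 1 than on every other array, as 0.371% of all genes were. The second probe set put emigrants 2 higher as well (by 1.71 with TCDD and 2.21 with dioxane), but emigrants 1 differed by only -0.30 and 0.31 from thymocytes.

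The markers moved with Il7r in part. The mean of the 12 macrophage and dendritic markers was 9.43 with TCDD and 9.03 with dioxane in emigrants 1, where Il7r was lowest. It was 8.94 and 7.30 in emigrants 2, where Il7r was highest. In thymocytes, where Il7r lay between emigrants 1 and emigrants 2, it was lowest, at 5.84 and 5.61. This list thus did not run opposite to Il7r over all arrays. The mean of the 10 NK and innate lymphoid markers was 8.11 with TCDD and 7.90 with dioxane in emigrants 2, where Il7r was highest, 6.40 and 6.46 in emigrants 1, and 7.78 and 6.42 in thymocytes. DN2 and DN3 markers did not keep the order of Il7r: their mean was 6.15 with TCDD and 8.30 with dioxane in emigrants 2, where Il7r differed by 0.12. Of 7 B-lineage markers 0 exceeded the highest control on every array, although Cd79b (4.88 to 5.52) and Blnk (4.72 to 5.72) did on 5 arrays and Igll1 on 3. The other 4, Cd79a, Ebf1, Pax5 and Vpreb1, read 3.02 to 4.44, with 1 value of Pax5 above its control. The mean of 4 gamma-delta T markers was 6.74 and 6.39 in emigrants 2, 5.63 and 5.62 in emigrants 1, and 6.26 and 6.07 in thymocytes. These were the measured ones of 8 listed. Blk, also among the genes most like Il7r below, had the widest span, at 10.44 and 9.44, 6.53 and 7.30, and 9.14 and 7.69. Sox13 was highest in thymocytes with dioxane (6.67), Il17a read 5.98 to 7.05, and Maf stayed under the highest control on every array. The part of other cell types in the Il7r values was not tested.

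**Figure D5:**
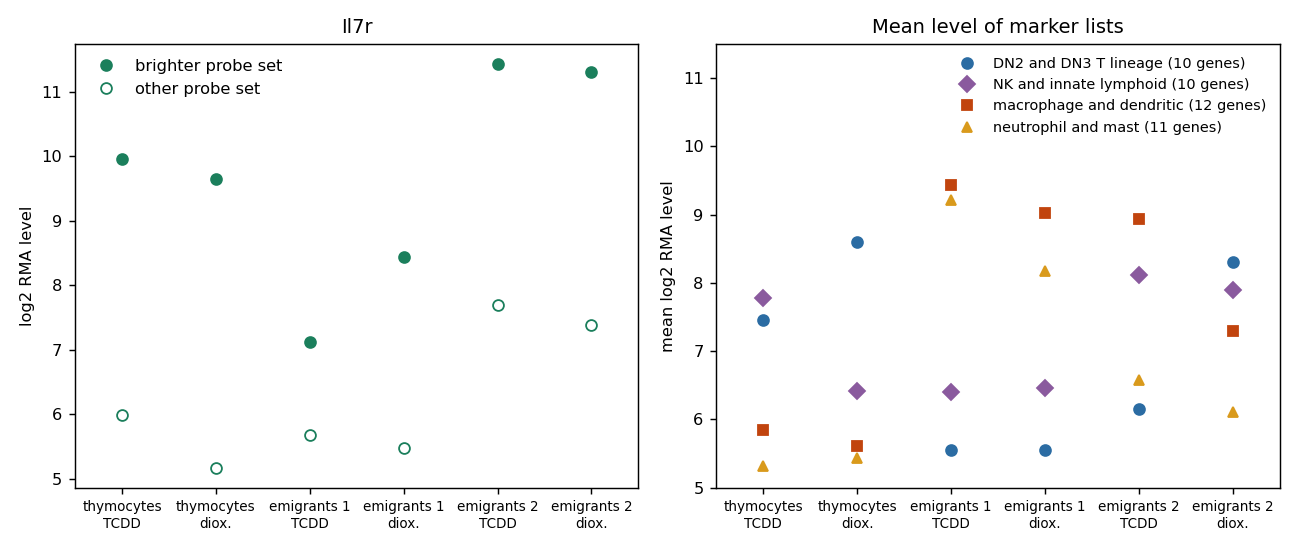
Log2 RMA level of both Il7r probe sets on each array (left) and mean log2 RMA level of 4 marker lists (right). Il7r is highest on the emigrant arrays numbered 2 (11.43 and 11.31), and the macrophage and neutrophil lists are highest on the emigrant arrays numbered 1.

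Of the other receptor chains and regulators, some kept the order of Il7r in part and others did not. Il2ra, the IL-2 receptor alpha chain that marks DN2 and DN3 cells, measured 3.87 with TCDD and 5.03 with dioxane in emigrants 1 and 6.35 and 6.61 in emigrants 2, against 8.07 and 9.01 in thymocytes. Every Il2ra value of emigrants lay below both of thymocytes. Since 3.87 lay under the highest control of its array (4.92), the Il2ra difference includes a level at background, and the fit gave -3.07 ± 0.78 (log2, SE; adjusted p = 0.501). Notch1, the receptor that starts T-lineage commitment, differed by -2.04 ± 0.54 (adjusted p = 0.512) and Gfi1 by -1.67 ± 0.66 (adjusted p = 0.697). Ets1, a factor that binds Il7r regulatory DNA, measured 8.30 and 9.18 in emigrants 1, 10.09 and 10.06 in emigrants 2, and 9.55 and 8.90 in thymocytes (TCDD, then dioxane). Ets1 was thus highest in emigrants 2, as Il7r was, and its array order differed from that of Il7r in 1 pair of neighbours, emigrants 1 and thymocytes with dioxane. Gata3, a T-lineage factor also on the list of Il7r regulators, measured 4.01 and 4.40 in emigrants 1, 6.78 and 6.98 in emigrants 2, and 6.59 and 6.88 in thymocytes, and was lowest in emigrants 1 as well. Gabpa was highest in emigrants 2 (7.52 and 8.05) but lowest with dioxane in thymocytes (6.81). The rest of that list went otherwise. Runx1 (6.27 and 6.32) and Foxo3 (7.21 and 7.10) were lowest in emigrants 2. Gfi1b was highest in emigrants 1 (6.66 and 6.26), and Runx3 and Spi1 with TCDD there (5.69 and 4.98). Foxo1 was highest with TCDD in thymocytes (7.88), and Notch1 and Gfi1 with dioxane there (9.41 and 8.17).

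The genes most like Il7r over the 6 arrays were found by the root mean square difference after centring each gene on its mean, among 597 genes of at least median level with an SD of at least 0.5 times its own. Tnfsf11 (RANKL), a ligand by which lymphoid cells act on thymic epithelium, was closest at 0.33 log2 units. These distances include levels at background, such as those of Tnfsf11 (4.07) and Ltb (4.45) with TCDD in emigrants 1 and, for Socs2, of Col5a2 and Fabp4 on some emigrant arrays. The levels of Tnfsf11 were 4.07 with TCDD and 4.79 with dioxane in emigrants 1, 8.22 and 7.68 in emigrants 2, and 7.15 and 6.79 in thymocytes. Blk, a Src-family kinase of B and gamma-delta T cells, followed at 0.51, then AI504432 at 0.51, Gbp6, a guanylate-binding protein, at 0.61 and Ltb, lymphotoxin beta, at 0.67. For Socs2, among 953 genes, these were Fabp4, a fatty acid carrier, at 0.38, Col5a2, a fibrillar collagen chain, at 0.44, Tesc at 0.44, Col1a2, a fibrillar collagen chain, at 0.53 and Cxcl10, an interferon-induced chemokine, at 0.55. The likeness of Socs2 to Col1a2 covers the arrays and not the treatment in each pair, since Col1a2 measured 8.12 with TCDD and 8.17 with dioxane in thymocytes, 6.37 and 5.16 in emigrants 1, and 8.34 and 5.51 in emigrants 2. The mean of 8 fibroblast and endothelial markers was 5.95 and 5.93 in thymocytes, 5.09 and 4.53 in emigrants 1, and 6.25 and 4.54 in emigrants 2, and its part in the Socs2 values was not tested.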

How the data were processed

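RNA of 6 samples was hybridised to 1 Affymetrix array each. The deposited values are log2 RMA summaries, per the submitters' processing notes, made with the affy package according to the design text. Its version is not given in the sources used here. No detection calls come with RMA, which understates differences of dim genes. Values were used as deposited. Of 22690 probe sets, 64 controls, 691 with several genes and 1555 with no gene were left out. Each of 12393 genes was represented by its brightest single-gene probe set. Gene lists were matched by symbol, 2 symbols being updated through RefSeq (GRCm38.p6) synonyms.

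Linear models were fitted to all genes with limma 3.58.1 in R 4.3.3 (lmFit, eBayes), with Benjamini-Hochberg adjustment over all genes and calls at an adjusted p under 0.05. The comparisons were TCDD against dioxane over both cell sources (source in the model), in emigrants alone, emigrants against thymocytes (with treatment as a term), and the interaction of treatment and source, with 3, 2, 3 and 2 residual degrees of freedom. Groups of 1 array are assumed to vary like the others. The number of arrays limits the precision. The 10 genes were named first, all list members could be named, and the genes most like Il7r and Socs2 were the closest 5 of each. The genes and lists were chosen with earlier results of these data known. The code was tested on simulated data. Promoter sequences are RefSeq's, in a table that covers 9 of the 10 genes. Alternatives were other normalisations, probe set rules, filters, priors, thresholds and covariates, a block for the array pair, and the omission of arrays.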

Additional observations from a re-analysis of the deposited data

How the results depend on the processing

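No gene of the 9 passed the test under any alternative run, and none of the 12393 genes did in any comparison, with the exception of emigrants against thymocytes without the dioxane emigrant array numbered 2 (range over omitted arrays 0 to 7 genes). In 25 differences of the 9 genes, 296 of 328 alternative values kept their sign. The others were of differences that had not passed, and their causes were not tested. With the mean of all probe sets, Il7r was 0.07 for TCDD across both sources and 0.38 for emigrants against thymocytes, and the Socs2 difference between sources was -0.05. Without both emigrant arrays numbered 1, an alternative added after the data were seen, Il7r was 0.21 and 1.57 in the same comparisons and Stat5b -0.15 for TCDD. Other probe sets gave, for TCDD across both sources, 0.43 (Il7r) and -0.21 (Jak1), for TCDD in emigrants 0.25 (Il7r), for emigrants against thymocytes 0.98 (Il7r) and -0.07 (Jak1), and for the difference between sources -0.25 (Socs2). Leaving out single arrays gave, for TCDD across both sources, Il7r -1.44 to 1.02, Jak1 -0.24 to 0.51, Jak3 -0.14 to 0.10 and Stat5b -0.27 to 0.50. It gave for TCDD in emigrants Il7r -2.75 to 1.56 and Cish -0.32 to 0.48, and for emigrants against thymocytes Il7r -1.09 to 0.76, Cish -0.84 to 0.32 and Socs1 -0.22 to 0.03. The Socs2 difference between sources ranged from -1.24 to 1.54. Socs2 and Socs3 kept their sign for TCDD across both sources throughout, at 0.58 to 2.17 and 0.51 to 1.14 when single arrays were left out. Socs2 was lowest (0.58) without the TCDD emigrant array numbered 2, and Socs3 (0.51) without the dioxane emigrant array numbered 2. The labels give the emigrant arrays of both treatments the same numbers, and the differences between numbers correlated at r = 0.56 over genes between the treatments, but 2 pairs do not settle that the numbers pair the arrays. With the array pair as a replicate block, limma called 0 genes across both sources (smallest adjusted p = 0.282, 1334 genes at an unadjusted p under 0.05) and 0 in emigrants (smallest adjusted p = 0.495, 725 genes), and Socs3 was 0.79 ± 0.14 (adjusted p = 0.284) and Socs2 1.39 ± 0.46 (adjusted p = 0.403). In thymocytes 697 genes differed at least 2-fold, and 448 with the mean of all probe sets, an alternative added after the data were seen, as were 2 other normalisations here. The thymocyte pair has 1 array a group and no leave-one-out value, nor has the difference between sources without a thymocyte array.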
